A study of Rattus norvegicus with 24 samples.

Results

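The comparison takes 6 libraries of PC12 cells, 3 of the vector 24 h group and 3 of the α1ACT 6 h group, of 24 in the series. The groups were chosen by the names of their deposited files, which put the vector line (P) at 3 d and at 24 h. By the sample labels the same files are the vector line at 24 h and the α1ACT line at 6 h. PC12 is a rat line from a pheochromocytoma, a tumour of the adrenal medulla. Both lines were stable transfectants of passages 18 to 20, the vector line with the plasmid pcDNA3 alone and the α1ACT line with pcDNA3 carrying α1ACT, a protein fragment made from the second open reading frame of the human CACNA1A mRNA. The sources used here do not give the event from which the times are counted or whether a line is 1 clone. Total RNA depleted of ribosomal RNA was sequenced as strand-marked pairs. Replicates are biological according to the protocol. Since no label names separate cultures, p-values here reflect the spread among these samples only, which may be technical.

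The contrast therefore has 2 readings. Read by the labels, the vector line at 24 h was set against the α1ACT line at 6 h, so that line and time changed together and cannot be told apart. Read by the file names, 1 line, the vector line, was followed across a step of time, 3 d over 24 h. Every value below is the same under both readings, and the groups are called by their labels. "Rose", "higher", "fell" and "lower" are said of the vector 24 h libraries relative to the α1ACT 6 h libraries.

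The lists with the most uniform direction belong to well known pathways. In the integrated stress response, kinases that sense amino acid shortage, misfolded protein, haem deficiency or double-stranded RNA phosphorylate the initiation factor eIF2α. Most translation then slows, while the transcription factor ATF4 is made more and switches on genes for amino acid uptake, amino acid synthesis and tRNA charging. Genes of DNA replication and mitosis are regulated with the cell cycle through E2F factors and the DREAM and MuvB complexes. Genes of sterol synthesis are transcribed through SREBP2.

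The vector 24 h libraries held 13354987, 10893364 and 14486248 counts on genes, and the α1ACT 6 h libraries 11893124, 11888519 and 11603721. Reads assigned to no gene feature made up 49.99% to 50.64% in vector 24 h and 48.96% to 50.01% in α1ACT 6 h libraries. The counts do not tell whether these reads lay in introns, between genes or on the other strand. Of the 9 chromaffin cell markers in the tables, which include the catecholamine enzyme genes Th, Ddc and Dbh, 9 were detected in all 6 libraries, and their summed level was 26415 to 27567 CPM in vector 24 h and 26054 to 31007 CPM in α1ACT 6 h libraries (CPM, counts of a gene per 1e6 counts on genes after scaling). In both groups the libraries numbered 2 lay farthest from the other members, at a root mean square difference of 0.276 to 0.295 log2 CPM in vector 24 h and 0.258 to 0.259 in α1ACT 6 h. Numbers 1 and 3 lay 0.205 apart in vector 24 h and 0.226 apart in α1ACT 6 h. Counts that lead the results are given with and without all libraries numbered 2 where they differ.

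Markers of other cell types were checked in the same libraries. Of 10 epithelial markers 7 were detected in all 6 libraries and Krt5, Krt14 and Krt19 were at 0, and their summed level was 685 to 719 CPM in vector 24 h and 1089 to 1251 CPM in α1ACT 6 h libraries. Most of that gap lay in Krt8, a keratin of simple epithelia, at 267, 268 and 257 CPM in vector 24 h against 623, 748 and 651 CPM in α1ACT 6 h. The claudins Cldn7 (0.55 ± 0.07, log2 fold change ± SE) and Cldn4 (0.51 ± 0.07) went the other way and rose. Of 10 fibroblast markers only Thy1 and Dcn were detected in all 6 libraries, with Col1a2, Col3a1, Pdgfrb, Lum and Fap at 0 and a sum of 660 to 713 CPM in vector 24 h and 704 to 758 CPM in α1ACT 6 h. Of 11 immune markers 3 were detected in all 6, with Ptprc, Aif1, Itgam and Tyrobp at 0 and a sum of 2.82 to 3.64 CPM in vector 24 h and 2.75 to 3.21 CPM in α1ACT 6 h. Of 9 Schwann and glial markers 3 were detected in all 6, with Sox10, Cdh19 and Fabp7 at 0 and a sum of 60.2 to 62.3 CPM in vector 24 h and 55.4 to 56.5 CPM in α1ACT 6 h. The part of these markers in the results was not tested.

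Genes of the integrated stress response and amino acid supply rose together, with the highest median of the lists tested. Lists and their members, here and below, were chosen with earlier results of these data known. A uniform direction within a list is therefore a description and not independent support. Of 51 listed genes 47 had enough counts to test, and 47 rose and none fell, with a median log2 fold change of 1.87 and a range of 0.84 to 5.87. In 44 the rise was at least 2-fold, and in 47 the libraries of the groups did not overlap, as in 61.4% of all genes tested. Over all 9994 genes tested, 26.8% were higher and 27.0% lower (edgeR quasi-likelihood F-test, Benjamini-Hochberg adjusted p under 0.05), 2.49% were at least 2-fold higher, 31.0% had vector 24 h libraries all above the others, and the median was -0.00. Without the libraries numbered 2, 47 of 47 rose as well.

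Roles within the list were formed after seeing the data. The transcription factors and signalling genes of the response rose in 13 of 13 tested, with a median of 2.30. Ddit3, which encodes the transcription factor CHOP, stood at 232, 295 and 246 CPM in vector 24 h libraries and at 29.98, 31.2 and 30.1 CPM in α1ACT 6 h libraries. That is 8.45-fold (3.08 ± 0.09, adjusted p = 4.96e-18), the smallest adjusted p of all genes tested. Trib3, a pseudokinase that restrains ATF4 and CHOP, had 277, 283 and 287 CPM in vector 24 h and 51.9, 48.6 and 48.5 CPM in α1ACT 6 h. Sesn2, an mTORC1 inhibitor that senses leucine, had 150, 175 and 150 CPM in vector 24 h and 30.9, 27.4 and 29.0 CPM in α1ACT 6 h. All 3 genes were separated by far more than the spread within either group. Atf4 itself was 3.47-fold higher (1.80 ± 0.10), at 956, 1077 and 1015 CPM in vector 24 h and 272, 353 and 252 CPM in α1ACT 6 h, although ATF4 is known to be governed largely at translation, which RNA counts do not measure. Atf5, a related factor, rose further, by 3.62 ± 0.20, and the eIF2α phosphatase subunit Ppp1r15a (2.04 ± 0.12), the mTORC1 inhibitor Ddit4 (2.30 ± 0.11) and the translation repressor Eif4ebp1 (2.22 ± 0.12) rose with it. Cebpb, at 0.91 ± 0.13, moved least. Genes named here beyond the 4 of lowest p in the list were chosen after their values were seen.

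Chac1, which degrades glutathione, had 103, 123 and 108 CPM in vector 24 h libraries and 4.68, 5.75 and 5.06 CPM in α1ACT 6 h libraries, 21.5-fold (4.43 ± 0.15, adjusted p = 1.05e-17). Slc7a11, the cystine transporter that supplies glutathione synthesis, was at 347, 424 and 389 CPM in vector 24 h and at 8.13, 6.83 and 4.72 CPM in α1ACT 6 h. This 58.7-fold rise (5.87 ± 0.27) was the largest of the list. Cth, the last enzyme on the route from methionine to cysteine, was 11.8-fold higher. The genes for cysteine supply and for glutathione breakdown were thus both high in the same 3 libraries.

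Amino acid and one-carbon enzymes rose in 10 of 10 tested, with a median of 2.24. The serine synthesis genes moved by similar amounts, Phgdh by 2.78 ± 0.13, Psat1 by 2.62 ± 0.12 and Psph by 2.61 ± 0.14. Of the mitochondrial folate enzymes Aldh1l2 rose 10.7-fold, Mthfd2 by 1.87 ± 0.09 and Shmt2 by 1.36 ± 0.08. Asns, asparagine synthetase, had 465, 552 and 482 CPM in vector 24 h and 169, 178 and 174 CPM in α1ACT 6 h. Its 2.88-fold rise was smaller than that of the serine genes. Gpt2, at 1.10 ± 0.13, was the lowest of this group.

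Amino acid transporters rose in 8 of 8 tested, with a median of 1.95. Both subunits of the leucine exchanger LAT1 rose, the transport subunit Slc7a5 by 2.44 ± 0.12 and the shared heavy chain Slc3a2 by 1.83 ± 0.07. The neutral amino acid transporters Slc1a5 (2.57 ± 0.14) and Slc1a4 (1.73 ± 0.08) and the glycine transporter Slc6a9 (2.06 ± 0.11) rose as well. Slc38a2, at 1688 CPM on average in vector 24 h and 945 CPM in α1ACT 6 h, had the smallest rise of the list, 0.84 ± 0.04.

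Secreted factors of the response rose in 3 of 3. Stc2, a stanniocalcin, was 12.1-fold higher at 702, 817 and 720 CPM in vector 24 h against 57.7, 71.6 and 56.2 CPM in α1ACT 6 h. Gdf15, a stress hormone that acts on the hindbrain, rose by 1.99 ± 0.13. Fgf21, a metabolic hormone, was low throughout, with 83 counts over the vector 24 h libraries and 9 over the α1ACT 6 h libraries. The inhibin subunit gene Inhbe, which lies outside the list, was also higher, with 450 counts over vector 24 h libraries and 4 over α1ACT 6 h libraries. Scaled for depth that is a ratio of 105, with an exact 95% counting interval of 40.5 to 385.

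Genes of tRNA charging rose as well. The 12 listed synthetases and the tRNA export receptor Xpot, chosen with earlier results known, rose in 13 of 13. Their median was 1.31, from 0.90 for Lars to 1.97 for Cars. Over all 20 cytosolic synthetase genes, a group formed after seeing the data, 15 rose and 2 fell, with a median of 1.09. The 2 that fell were Dars (-0.26 ± 0.05) and Kars (-0.24 ± 0.05), and Farsa, Hars and Rars did not pass. Of the 15 genes for mitochondrial synthetases 3 rose (Nars2, Fars2 and Wars2) and 2 fell, Pars2 among them, and their median was 0.05. The difference between the cytosolic and mitochondrial sets was not tested.

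**Figure D1:**
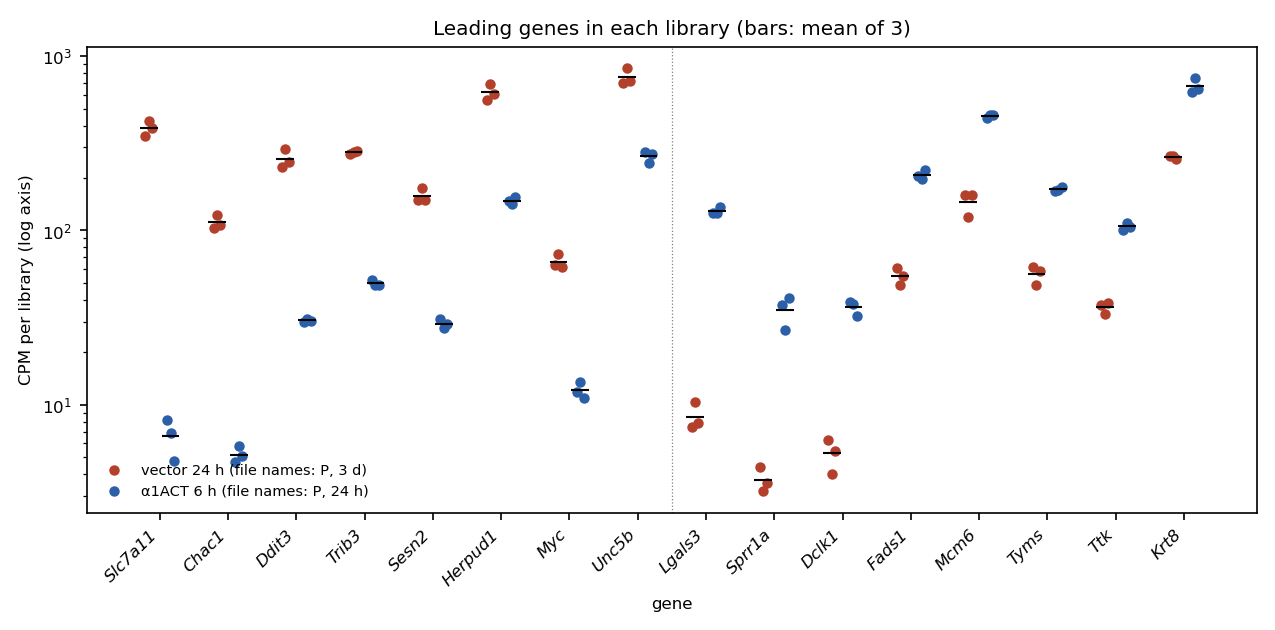
Level of 16 named genes in each of the 6 libraries, in CPM on a log axis, with vector 24 h libraries in red, α1ACT 6 h libraries in blue and a bar at each mean of 3. The 8 genes left of the dotted line have every vector 24 h library above every α1ACT 6 h library, and the 8 genes right of it have every vector 24 h library below.

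Promoters are shown for the 2 called members of lowest p in each of the 3 lists with the most uniform direction, since their members moved together. Each runs from 250 bases before to 50 bases after the annotated start in RefSeq on build GRCr8, 5′ to 3′ on the gene's strand. Capitals mark matches, on either strand, to the motif known for that list. For the stress response this was the C/EBP-ATF response element TGATGNAA, which binds ATF4 or CHOP paired with a C/EBP factor. Ddit3 on chromosome 7, plus strand, chr7:65001445-65001744, holds no match in this window, and Chac1 on chromosome 3, plus strand, chr3:126795881-126796180, holds 1 on the opposite strand at -167 to -160.
Ddit3: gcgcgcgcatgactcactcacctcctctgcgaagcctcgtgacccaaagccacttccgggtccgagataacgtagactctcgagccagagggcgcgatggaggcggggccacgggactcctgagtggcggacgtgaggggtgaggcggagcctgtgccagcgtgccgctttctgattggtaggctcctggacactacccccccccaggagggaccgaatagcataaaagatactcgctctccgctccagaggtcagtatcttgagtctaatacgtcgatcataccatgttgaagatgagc
Chac1: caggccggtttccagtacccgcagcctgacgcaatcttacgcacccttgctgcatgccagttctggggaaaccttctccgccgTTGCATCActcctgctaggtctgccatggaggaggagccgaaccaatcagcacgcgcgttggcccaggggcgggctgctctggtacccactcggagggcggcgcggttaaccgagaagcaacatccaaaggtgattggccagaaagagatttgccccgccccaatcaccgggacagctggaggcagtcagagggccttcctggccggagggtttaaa
Of the 47 tested members 41 had a promoter in the RefSeq table, 30 by symbol and 11 by synonym. The motif was found in 14 of these 41 (34.1%) and in 3.98% of all 33469 promoters of the table. A match is a description of the letters and not of binding.

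Genes of DNA replication fell throughout. Of 38 tested, 38 fell and none rose, against 27.0% and 26.8% of all genes tested. In 22 the fall was at least 2-fold, where 3.20% of all genes fell that far. The median log2 fold change was -1.08 and the range -1.73 to -0.27. Rrm2, the regulatory subunit of ribonucleotide reductase, fell furthest, at 17.3, 16.2 and 17.2 CPM in vector 24 h against 56.2, 61.7 and 50.03 CPM in α1ACT 6 h. The genes for making thymidylate fell by similar amounts, Tyms (-1.61 ± 0.09), Tk1 (-1.37 ± 0.11) and Dut (-1.33 ± 0.07). Among subunits of the MCM helicase that unwinds DNA, Mcm6 had 161, 119 and 160 CPM in vector 24 h and 444, 461 and 462 CPM in α1ACT 6 h, and Mcm2, Mcm3, Mcm5 and Mcm7 fell by 1.01 to 1.38 on the log2 scale. Mcm4 fell by 0.83. The sliding clamp Pcna was 1.85-fold lower, and the primase subunit Prim1 moved least (-0.27 ± 0.07). In bulk libraries, fewer cells of a kind and less RNA per cell cannot be told apart.

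Mitosis genes fell in 30 of 31 tested (96.8%), 16 of them by at least 2-fold, with a median of -1.01. Of all genes tested 27.0% fell, and 3.20% fell by at least 2-fold. Ttk, a kinase of the spindle checkpoint, was at 37.3, 33.0 and 38.4 CPM in vector 24 h and at 101, 111 and 105.0 CPM in α1ACT 6 h (-1.54 ± 0.10, adjusted p = 3.90e-12). Cdk1, the kinase that drives entry into mitosis, was at 88.4, 71.3 and 80.8 CPM in vector 24 h and at 185, 201 and 179 CPM in α1ACT 6 h. Its partners Ccna2 (-1.40 ± 0.10), Ccnb1 (-0.90 ± 0.09) and Ccnb2 (-1.29 ± 0.10) fell with it, as did the antigen of proliferating cells Mki67 (-0.98 ± 0.09). The sole gene to rise was Hmmr, a spindle protein, by 0.25 ± 0.10 (adjusted p = 0.0271). That call ended under 7 alternatives, among them leaving out any 1 vector 24 h library and leaving out all libraries numbered 2.

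Of 24 tested genes of the G1 phase 11 fell (45.8%) and 6 rose (25%), against 27.0% and 26.8% of all genes tested. Cdk2 (-1.08 ± 0.10), the pocket protein gene Rbl1 (-0.80 ± 0.08) and the repressor E2f7 (-0.995 ± 0.11) fell, while the CDK inhibitor Cdkn1b (0.54 ± 0.07) and the antiproliferative gene Btg1 (0.87 ± 0.11) rose. Ccnd1, cyclin D1, stood at 983, 953 and 978 CPM in vector 24 h and 1000, 968 and 988 CPM in α1ACT 6 h, and the groups overlapped. Of 18 tested histone genes 7 fell (38.9%) and 3 rose (16.7%). The linker histone Hist1h1a changed by -1.16 ± 0.21 and Hist2h2ab by 1.08 ± 0.15. Histone genes have near-identical copies that may share reads, so single members are uncertain.

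For replication genes the motif was that of E2F, searched as TTTCCCGC or TTTGGCGC, and for mitosis genes the cell cycle homology region TTTGAA and the CCAAT box, through which DREAM and NF-Y are known to act. Dut (chr3:132952180-132952479, plus strand) holds no E2F match in this window, and Tyms (chr9:120776034-120776333, minus strand) holds 1 at -37 to -30. Ttk (chr8:93634389-93634688, plus strand) holds 1 homology region at 5 to 10 and 2 CCAAT boxes, and Cdk1 (chr20:19265043-19265342, plus strand) holds 2 homology regions, at -72 to -67 and -16 to -11, and 3 CCAAT boxes.
Dut: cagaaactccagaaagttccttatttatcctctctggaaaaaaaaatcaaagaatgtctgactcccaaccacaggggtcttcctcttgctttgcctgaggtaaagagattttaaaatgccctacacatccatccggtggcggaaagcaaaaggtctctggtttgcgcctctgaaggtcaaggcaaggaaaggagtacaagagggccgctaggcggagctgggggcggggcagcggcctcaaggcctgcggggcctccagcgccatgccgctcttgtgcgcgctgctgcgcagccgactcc
Tyms: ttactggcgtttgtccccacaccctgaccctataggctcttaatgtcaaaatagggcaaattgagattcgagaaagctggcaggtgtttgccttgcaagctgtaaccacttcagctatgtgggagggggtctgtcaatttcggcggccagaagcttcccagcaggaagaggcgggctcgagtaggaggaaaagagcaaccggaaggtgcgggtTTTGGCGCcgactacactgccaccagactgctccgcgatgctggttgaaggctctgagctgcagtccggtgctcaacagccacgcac
Ttk: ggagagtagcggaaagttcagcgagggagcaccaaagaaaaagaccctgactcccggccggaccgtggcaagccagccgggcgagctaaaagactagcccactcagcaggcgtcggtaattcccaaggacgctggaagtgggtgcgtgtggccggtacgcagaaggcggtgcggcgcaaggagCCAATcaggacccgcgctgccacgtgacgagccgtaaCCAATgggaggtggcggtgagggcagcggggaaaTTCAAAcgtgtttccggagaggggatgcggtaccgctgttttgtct
Cdk1: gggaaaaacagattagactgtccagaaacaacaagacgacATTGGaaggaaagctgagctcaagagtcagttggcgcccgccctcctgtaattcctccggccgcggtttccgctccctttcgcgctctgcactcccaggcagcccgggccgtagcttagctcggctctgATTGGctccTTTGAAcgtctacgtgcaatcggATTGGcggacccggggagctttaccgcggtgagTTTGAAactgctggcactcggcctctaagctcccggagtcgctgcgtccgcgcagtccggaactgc
An E2F match was present in 11 of the 32 replication promoters in the table (34.4%) and in 1.45% of all promoters. The homology region was present in 20 of 26 mitosis promoters (76.9%) and in 18.3% of all, and the CCAAT box also in 20 of 26 (76.9%) and in 37.5% of all. The motifs of a list do not overlap in the promoters printed.

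Genes of sterol and fatty acid synthesis fell in 29 of 33 tested (87.9%) and none rose, with a median of -0.79. Of all genes tested 27.0% fell and 26.8% rose. In the mevalonate and sterol branch 17 of 19 fell, with a median of -0.85. Hmgcs1, which starts the route, had 113, 146 and 122 CPM in vector 24 h and 288, 344 and 322 CPM in α1ACT 6 h. Further along, Idi1 (-1.46 ± 0.16), Fdps (-1.02 ± 0.07), Sqle (-0.85 ± 0.12) and Dhcr7 (-1.27 ± 0.12) fell too, and Pmvk (-0.06 ± 0.07) and Tm7sf2 (-0.00 ± 0.12) did not pass. Srebf2, the gene of SREBP2 itself, fell by 0.24.

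In the fatty acid branch 9 of 11 genes fell, with a median of -0.50. Fads1, the delta-5 desaturase of polyunsaturated fatty acids, fell furthest, at 60.7, 48.9 and 54.6 CPM in vector 24 h against 206, 198 and 223 CPM in α1ACT 6 h (-1.93 ± 0.09, adjusted p = 3.16e-15). Its neighbour on the same route, Fads2, fell by 0.79, and Scd1, which makes oleate, by 1.52. The synthases at the core of the route moved less, Fasn by -0.50 ± 0.06, Acaca by -0.31 ± 0.05 and Acly by -0.25 ± 0.06.

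**Figure D2:**
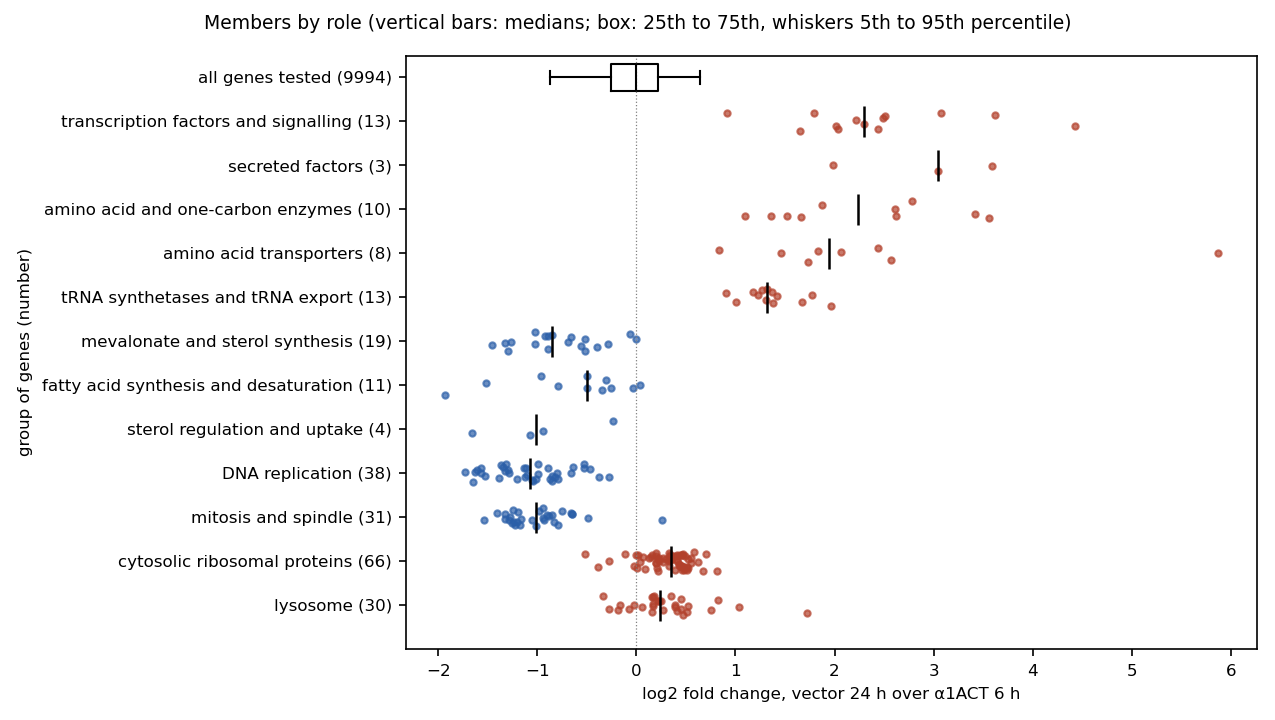
Log2 fold change of vector 24 h over α1ACT 6 h for each tested gene, grouped by role, with a vertical bar at each median and a box for all 9994 genes (25th to 75th percentile, whiskers at the 5th and 95th). Every group of stress response genes lies right of 0, and replication, mitosis and sterol genes lie left of it apart from Hmmr and a few genes near 0.

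Genes of the unfolded protein response rose in part. Of 34 tested 20 rose (58.8%), 6 fell (17.6%) and 8 did not pass, with a median of 0.22. Of all genes tested 26.8% rose and 27.0% fell. Herpud1, a membrane organiser of endoplasmic reticulum degradation, had 561, 695 and 608 CPM in vector 24 h and 147, 141 and 156 CPM in α1ACT 6 h. Ern1, the sensor kinase IRE1α, rose by 1.93 ± 0.10 and the degradation adaptor Sel1l by 1.58 ± 0.08. Hspa5, the chaperone BiP, was 2.05-fold higher, at 1876, 2777 and 2108 CPM in vector 24 h and 1081, 1126 and 1094 CPM in α1ACT 6 h. Other members fell or did not pass. Calr (-0.37 ± 0.07), Sdf2l1 (-0.57 ± 0.09), Creld2 (-0.32 ± 0.08) and Hsp90b1 (-0.29 ± 0.09) fell, and Pdia3, Pdia4 and Pdia6 did not pass. Xbp1, whose RNA is spliced by IRE1α, was among those that rose, by 0.22 ± 0.06.

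Heat shock genes split, with 8 lower (38.1%) and 5 higher (23.8%) of 21 tested. Of all genes tested 27.0% were lower and 26.8% higher. The inducible cytosolic chaperone Hsp90aa1 (-0.93 ± 0.09) and the small heat shock protein Hspb1 (-0.999 ± 0.11) fell, while the mitochondrial chaperone Hspa9 rose (1.16 ± 0.09). Without vector 24 h replicate 1 the count lower was 5, and without vector 24 h replicate 2 the count higher was 3. NRF2 targets were as divided, with 9 lower (36%) and 8 higher (32%) of 25, not far from those shares. Nfe2l2, the gene of NRF2, rose by 1.13 ± 0.08, but the detoxification genes Gstm1 (-1.32 ± 0.09), Gsta4 (-1.05 ± 0.10) and Nqo1 (-0.52 ± 0.08) fell, and Slc7a11 belongs to this list as well. Of 21 p53 targets 7 rose (33.3%) and 6 fell (28.6%), near the shares of all genes tested. Bbc3, the proapoptotic PUMA gene, rose by 1.21 ± 0.08, Plk2 by 1.03 ± 0.07 and Gadd45a by 2.01 ± 0.17. The CDK inhibitor Cdkn1a, the best known target of p53, gave -0.08 ± 0.12 and did not pass.

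Cytosolic ribosomal protein genes rose in 43 of 66 tested and fell in 2, with a median of 0.35, and 41 rose without the libraries numbered 2. Rplp0, of the ribosomal stalk, had 1963, 2369 and 2067 CPM in vector 24 h and 1489, 1605 and 1550 CPM in α1ACT 6 h. None of the 66 rose by as much as 2-fold, and ribosomal protein genes have many processed copies that may take or lend reads. Gas5, a host of small nucleolar RNAs whose level depends on translation, rose by 0.66 ± 0.08. For ribosome biogenesis 7 of 35 genes were higher and 3 lower, below the share of all genes in each direction, with Myc, their known activator, at 63.3, 73.3 and 61.3 CPM in vector 24 h and 11.8, 13.4 and 10.97 CPM in α1ACT 6 h (2.45 ± 0.12). Of 31 immediate early genes 9 rose (29%) and 3 fell (9.68%), against 26.8% and 27.0% of all genes tested. Myc and Atf3 (2.49 ± 0.21) had the lowest p.

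Lysosome genes rose in 22 of 30 (73.3%) and fell in 3 (10%), against 26.8% and 27.0% of all genes tested. The median of the list was 0.24. Among its members the acid α-glucosidase Gaa rose by 0.82 ± 0.07. Without the libraries numbered 2 the count higher was 16. Of 22 autophagy genes 15 rose (68.2%) and 2 fell (9.09%). The cargo receptor Sqstm1 (0.89 ± 0.06), the mitophagy receptor Bnip3 (1.01 ± 0.07) and the autophagosome protein Map1lc3b (0.61 ± 0.05) had the lowest p, and the conjugating enzyme Atg7 fell (-0.42 ± 0.08). Of 15 circadian clock genes 9 rose (60%) and 1 fell (6.67%), led by the repressor Nfil3 (1.77 ± 0.26), which also responds to stress.

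Glycolysis and hypoxia genes fell in 19 of 36 (52.8%) and rose in 9 (25%), against 27.0% and 26.8% of all genes tested. The enolase Eno1 had 79.9, 72.5 and 76.9 CPM in vector 24 h and 167, 178 and 179 CPM in α1ACT 6 h. Pgk1 (-0.68 ± 0.04) and the lactate exporter Slc16a3 (-1.16 ± 0.10) fell too, and Bnip3, which is also induced in hypoxia, rose. Respiratory chain genes fell in 23 of 45 and rose in 5, by small amounts (median -0.15), with Atp5b at -0.52 ± 0.04. Genes of lipolysis and lipid droplets fell in 13 of 25 and rose in 4, with Plin2, a droplet coat protein, at -0.60 ± 0.08 and the β-oxidation subunit Hadhb at 1.07 ± 0.07.

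**Figure D3:**
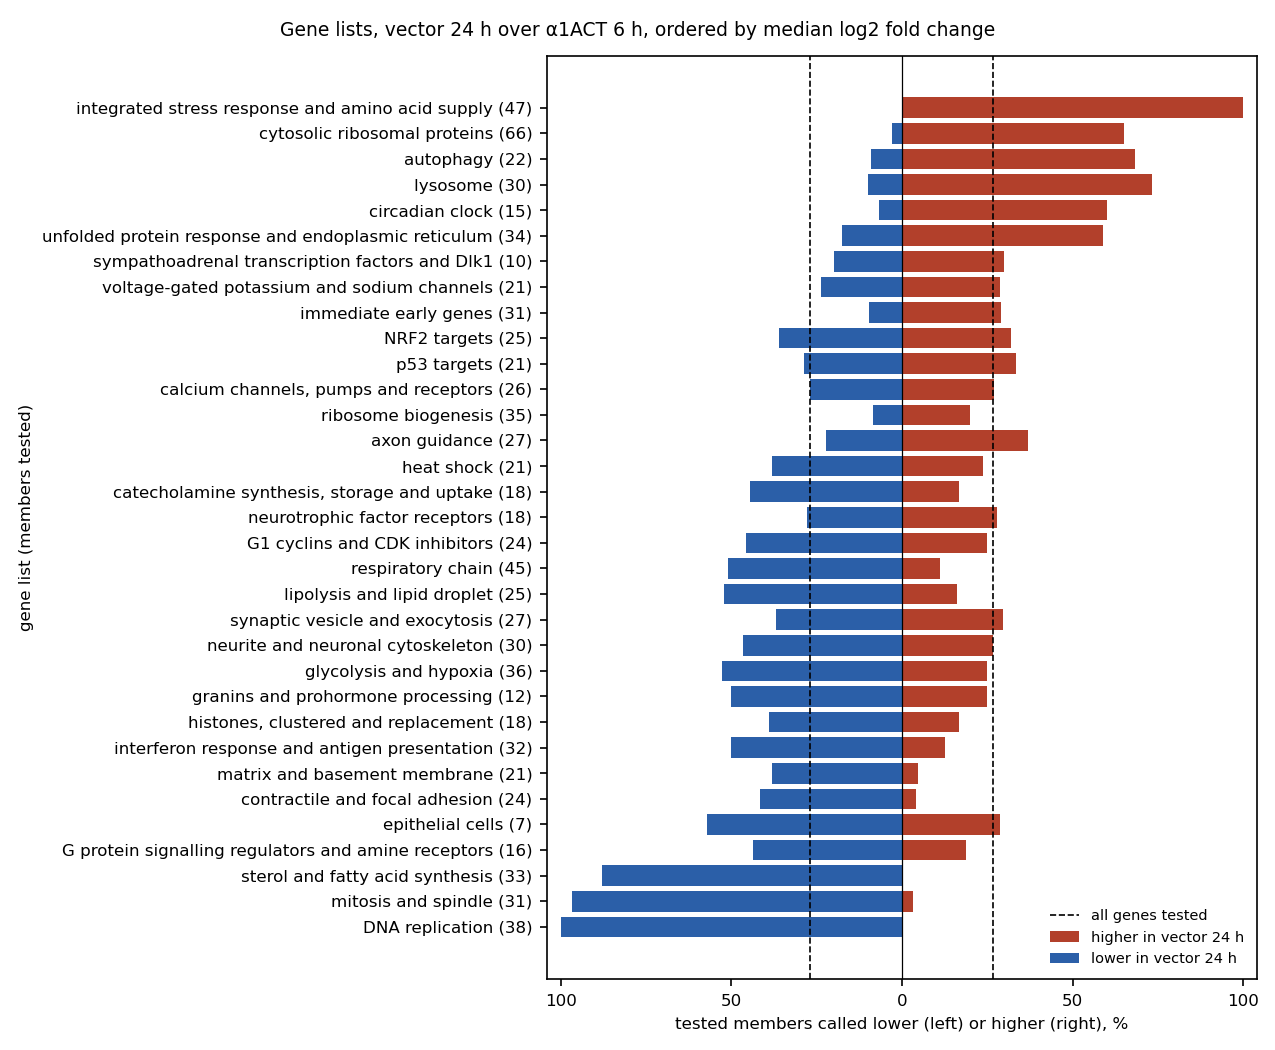
Share of the tested members of each gene list that were called higher (right, red) or lower (left, blue) in vector 24 h than in α1ACT 6 h libraries, in percent, with members tested in parentheses and dashed lines at the shares over all genes tested, 26.8% higher and 27.0% lower. Stress response and amino acid supply genes reach 100% higher and DNA replication genes 100% lower, and most neuronal and chromaffin lists have bars on both sides.

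Genes by which PC12 cells are known as chromaffin cells are given next. Th, tyrosine hydroxylase, which sets the rate of catecholamine synthesis, averaged 4939 ± 194 CPM in vector 24 h and 5127 ± 330 CPM in α1ACT 6 h (SD, n = 3 each), a change of -0.05 ± 0.05 that missed the threshold (edgeR adjusted p = 0.413). Neither Dbh (-0.08 ± 0.12, adjusted p = 0.614) nor the granin Chga (-0.15 ± 0.10, adjusted p = 0.219) passed. The list for catecholamine synthesis, storage and uptake also holds nicotinic receptor subunits. Of its 18 tested genes 8 fell (44.4%) and 3 rose (16.7%), against 27.0% and 26.8% of all genes tested. Those that fell include the enzymes of the tetrahydrobiopterin cofactor of Th, Spr (-1.35 ± 0.11), Qdpr (-0.79 ± 0.06) and Gch1 (-0.66 ± 0.11), and the monoamine oxidase Maoa (-0.91 ± 0.06). Nicotinic receptor subunits Chrnb2 (0.998 ± 0.07) and Chrna7 (0.50 ± 0.09) rose. Granins and prohormone processing genes fell in 6 of 12 (50%) and rose in 3 (25%), with the growth factor-induced Vgf at 145, 122 and 114 CPM in vector 24 h and 331, 382 and 239 CPM in α1ACT 6 h.

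The list for receptors of neurotrophic factors also holds adaptors such as Shc4. Of its 18 tested genes 5 were higher and 5 lower, 27.8% each way, which is near the share of all genes tested. Gfra3, the artemin receptor, was at 10.1, 11.95 and 10.02 CPM in vector 24 h and at 0.246, 0.0833 and 0.591 CPM in α1ACT 6 h, while Ret, its signalling partner, fell by 0.87. Genes of neurites and the neuronal cytoskeleton fell in 14 of 30 (46.7%) and rose in 8 (26.7%). Of all genes tested 27.0% fell and 26.8% rose. The neurofilaments Nefl (-0.90 ± 0.08) and Nefh (-0.90 ± 0.07), the microtubule-binding kinase Dclk1 (-2.77 ± 0.20) and Sprr1a (-3.23 ± 0.21), which is induced in regenerating neurons, fell. The kinesin Kif21b went the other way, at 17.8, 31.2 and 20.7 CPM in vector 24 h against 1.15, 0.333 and 0.759 CPM in α1ACT 6 h.

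Synaptic vesicle and exocytosis genes fell in 10 of 27 (37%) and rose in 8 (29.6%), against 27.0% and 26.8% of all genes tested. Stx1a, a syntaxin of the fusion complex, was at -0.91 ± 0.08 and the synaptotagmin Syt4 at 0.83 ± 0.08. For axon guidance 10 of 27 genes were higher (37%) and 6 lower (22.2%). The netrin receptor Unc5b had 706, 855 and 722 CPM in vector 24 h and 282, 244 and 274 CPM in α1ACT 6 h, and the teneurin Odz4 was at 23.3, 16.3 and 19.8 CPM in vector 24 h and 2.22, 3.42 and 3.29 CPM in α1ACT 6 h. The list for calcium channels, pumps and receptors also holds a buffer protein gene. Of its 26 tested genes 7 rose and 7 fell, 26.9% each way, which is near the share of all genes tested. The pump Atp2b4 (-1.08 ± 0.11) and the release channel Itpr1 (-0.97 ± 0.08) fell, and the N-type channel Cacna1b rose (0.52 ± 0.08). The buffer protein gene Calb2 had 36 counts over the vector 24 h libraries and 0 over the α1ACT 6 h libraries, at least 11.1-fold higher against a floor of 3 counts over the group. Potassium and sodium channel genes rose in 6 of 21 (28.6%) and fell in 5 (23.8%), also near the background. Regulators of G protein signalling and amine receptors fell in 7 of 16 (43.8%) and rose in 3 (18.8%), with Rgs9 rising (1.03 ± 0.09).

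In earlier work 4 genes have been tied to α1ACT, and they bear on the line only under the reading by labels. Cacna1a, the rat gene of the channel, was at 16.4, 15.6 and 18.7 CPM in vector 24 h and 18.1, 16.3 and 14.9 CPM in α1ACT 6 h, and the groups overlapped (0.04 ± 0.11, adjusted p = 0.765). The human sequence of the transgene has no row of its own, so Cacna1a does not tell which libraries carry it. Atp2b2, a plasma membrane calcium pump, was lower (-0.51 ± 0.08), and Grn (0.39 ± 0.05), the progranulin gene, and Btg1 were higher.

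Actin, adhesion and matrix genes leaned lower. Contractile and focal adhesion genes fell in 10 of 24 and rose in 1, with Anxa2 (-1.36 ± 0.09) and its partner S100a10 (-1.34 ± 0.09) at 283, 277 and 271 CPM and at 27.8, 27.4 and 27.9 CPM in vector 24 h. In α1ACT 6 h they were at 684, 773 and 670 CPM and at 67.1, 66.6 and 76.8 CPM. Matrix and basement membrane genes fell in 8 of 21 (38.1%) and rose in 1 (4.76%), where 27.0% of all genes tested fell and 26.8% rose. Interferon response and antigen presentation genes fell in 16 of 32 and rose in 4. Irf7, the amplifier of interferon signalling, fell by 1.22, and B2m, the light chain of MHC class I, rose by 0.60.

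The largest rises were of genes in and outside the lists. Col4a1, a basement membrane collagen and the gene of the matrix list that rose, had 305 counts over the vector 24 h libraries and 1 over the α1ACT 6 h libraries, a ratio of 283 scaled for depth with a 95% counting interval of 50.5 to 11228. The interleukin 9 receptor gene Il9r had 242 counts in vector 24 h and 3 in α1ACT 6 h, a ratio of 74.9 (25.3 to 366). Counting intervals cover counting error only. Casp4, an inflammatory caspase, had 67.6, 107 and 81.8 CPM in vector 24 h and 2.38, 1.33 and 2.62 CPM in α1ACT 6 h, and Creb3l1, a transcription factor released from the endoplasmic reticulum, 11.4, 16.1 and 12.7 CPM in vector 24 h and 0.657, 0.333 and 0.422 CPM in α1ACT 6 h. Trim66 (5.92 ± 0.32), the fatty acid hydroxylase Fa2h (4.2004 ± 0.46), the death ligand Faslg (4.00 ± 0.38), Cyp4b1 (4.00 ± 0.44) and the adaptor Shc4 (3.84 ± 0.26) complete the 14 largest rises with Slc7a11, Chac1, Inhbe, Gfra3 and Kif21b. Apart from Slc7a11 and Chac1, none of these 14 exceeded 2.62 CPM in an α1ACT 6 h library.

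The largest fall was that of Lgals3, galectin 3, a β-galactoside-binding lectin. It fell to 7.41, 10.4 and 7.82 CPM in vector 24 h, against 126, 126 and 135 CPM in α1ACT 6 h, 15.3-fold (-3.94 ± 0.20, adjusted p = 3.43e-14). The proteoglycan Dcn fell to 0.519, 1.68 and 1.65 CPM in vector 24 h, against 6.73, 6.92 and 7.34 CPM in α1ACT 6 h. Tmsb4x, thymosin β4, which sequesters actin, averaged 52.2 CPM in vector 24 h and 201 CPM in α1ACT 6 h and fell by 1.93, and the centromere protein Cenpw by 1.93. Plekhb1 (-3.50 ± 0.36), the immune checkpoint ligand Vtcn1 (-2.24 ± 0.32), the chemokine Ccl7 (-2.02 ± 0.34), the Hippo factor Tead2 (-1.93 ± 0.29), Tmem98 (-1.85 ± 0.15), Plek2 (-1.84 ± 0.27) and LOC691496 (-2.25 ± 0.37) were also among the 14 largest falls. In all, 5374 of 9994 genes (53.8%) passed, with 2680 higher and 2694 lower. A change of 2-fold or more was seen in 569 (5.69%). Without the libraries numbered 2, 5080 genes passed at any size of change.

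The same pair of file-name times exists in the other line. Files named Q11 at 3 d and 24 h are, by the labels, the vector 10 d and α1ACT 3 d groups, and they share no library with the 6 described here, though all entered 1 fit. In that contrast 28.6% of genes were higher and 29.7% lower. Across the 9994 genes its log2 fold changes followed those of vector 24 h over α1ACT 6 h with a Pearson r of 0.921 and a slope of 1.01, a description over genes that are not independent replicates. Of the genes called here 84.8%, or 4555, were called there in the same direction, which is 78.2% of the calls there. In opposite directions 4 genes were called, Btf3, Hsp90b1, Nefm and Orc5. Of the 569 genes that moved by at least 2-fold, 527 (92.6%) were called the same way.

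The lists can be set side by side. Stress response and amino acid supply genes had a median of 1.87 in vector 24 h over α1ACT 6 h and 1.94 in vector 10 d over α1ACT 3 d, and 47 of 47 rose in each. Replication genes had medians of -1.08 and -1.25, mitosis genes -1.01 and -1.23, sterol and fatty acid genes -0.79 and -0.64, and ribosomal protein genes 0.35 and 0.35, in that order of contrasts. Lists with smaller medians are given next, and no difference between lists was tested. Of 27 axon guidance genes 10 were higher and 6 lower here. In vector 10 d over α1ACT 3 d, 11 were higher and 13 lower. Of all genes tested 26.8% were higher and 27.0% lower here, and 28.6% and 29.7% there. The axon guidance medians were -0.04 and -0.17. Medians were -0.14 and 0.07 for the neurotrophic receptor list, -0.07 and -0.25 for the catecholamine list, and -0.29 and -0.10 for interferon genes. Slc7a11 differed by 5.87 and 6.15, Chac1 by 4.43 and 5.00, and Lgals3 by -3.94 and -4.07. The difference between the contrasts was tested in the same fit. No gene passed (edgeR quasi-likelihood F-test, smallest adjusted p = 0.0872), with 953 at an unadjusted p under 0.05, and the SE of a difference was 0.11 at the median, so small differences could go undetected. That count was not stable. DESeq2 called 24 genes, 24 were called without vector 24 h replicate 2, 31 without vector 10 d replicate 1, 2 without vector 10 d replicate 3, and 144 without all libraries numbered 2. Hsp90b1, Nat9 and Atp1b1 had the smallest adjusted p, and Hsp90b1, the chaperone GRP94, gave -0.29 ± 0.09 in vector 24 h over α1ACT 6 h and 0.36 in vector 10 d over α1ACT 3 d.

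**Figure D4:**
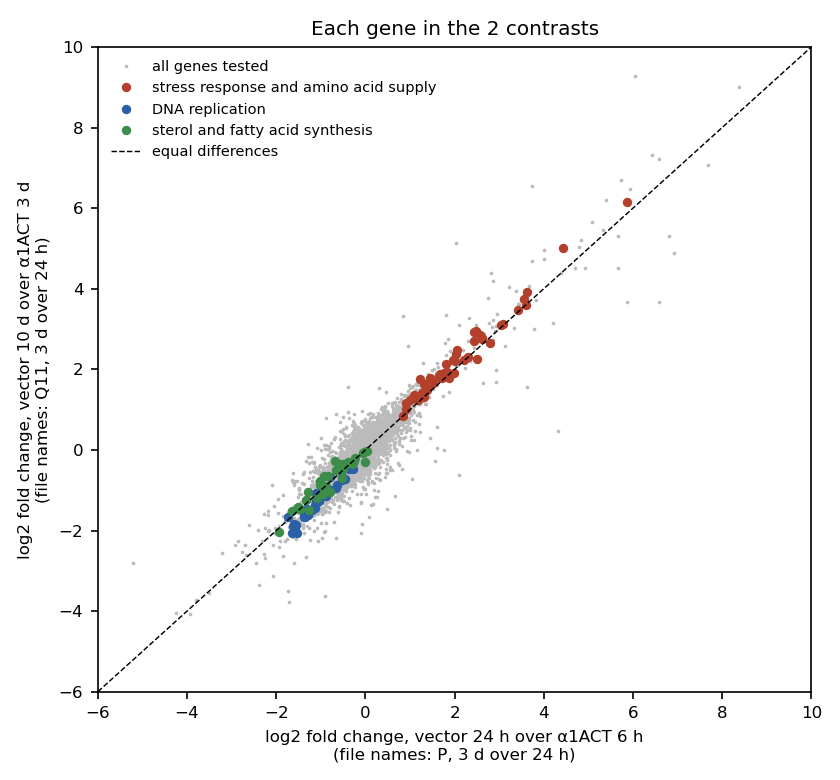
Log2 fold change of each tested gene in vector 24 h over α1ACT 6 h (horizontal axis) and in vector 10 d over α1ACT 3 d (vertical axis), with 3 gene lists coloured and a dashed line where both are equal. Stress response genes lie upper right and replication and sterol genes lower left, close to the line, and no library enters both axes.

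Set beside the other groups, the 6 libraries lay as follows. The vector 24 h and α1ACT 6 h groups were 0.536 apart in root mean square log2 CPM, the 18th smallest of 28 distances between groups. The vector 24 h group lay nearest to vector 10 d, at 0.222, and the α1ACT 6 h group nearest to α1ACT 3 d, at 0.185. By file names both of these are pairs of the 2 lines at 1 time. Under the labels they are pairs of times within 1 line.

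Under the reading by labels, the contrast can be split by way of a group that shares its line or its time, and these parts share libraries with it. By way of vector 6 h, stress response genes had a median of 1.68 in vector 24 h over vector 6 h and 0.17 in vector 6 h over α1ACT 6 h. By way of α1ACT 24 h, the medians were 0.68 in vector 24 h over α1ACT 24 h and 1.05 in α1ACT 24 h over α1ACT 6 h. Replication genes had medians of -1.17 and 0.11 by way of vector 6 h, and of -1.07 and 0.08 by way of α1ACT 24 h. Sterol and fatty acid genes had -0.64 and 0.04, and -0.64 and -0.14. Ribosomal protein genes had 0.31 and 0.03, and 0.03 and 0.31. Between the α1ACT groups, 44 of 47 stress response genes and 44 of 66 ribosomal protein genes were higher at 24 h, while of 38 replication genes 9 were higher and 4 lower.

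Under the reading by file names, the vector line passes through 6 h, 24 h, 3 d and 10 d, and the contrast is its middle step. Slc7a11 averaged 18.7, 6.56, 387 and 133 CPM at these 4 times, Chac1 4.41, 5.16, 111 and 78.2 CPM, and Ddit3 47.0, 30.4, 258 and 188 CPM. Mcm6 averaged 456, 456, 146 and 342 CPM, Tyms 185, 172, 56.3 and 119 CPM, and Fads1 194, 209, 54.7 and 228 CPM. Lgals3 averaged 117, 129, 8.53 and 8.11 CPM. In this order the stress response genes peaked at 3 d and were lower at 10 d, replication genes and Fads1 had their low point at 3 d, and Lgals3 was as low at 10 d as at 3 d. In the order of the labels, the same vector 24 h libraries stand between vector 6 h and vector 3 d, where Slc7a11 averaged 18.7 CPM at 6 h, 387 CPM at 24 h, 18.7 CPM at 3 d and 455 CPM at 10 d. For α1ACT the means of Slc7a11 were 6.56, 133, 6.44 and 133 CPM in that order of times, so its level alternated in both lines. Which reading is right was not tested.

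**Figure D5:**
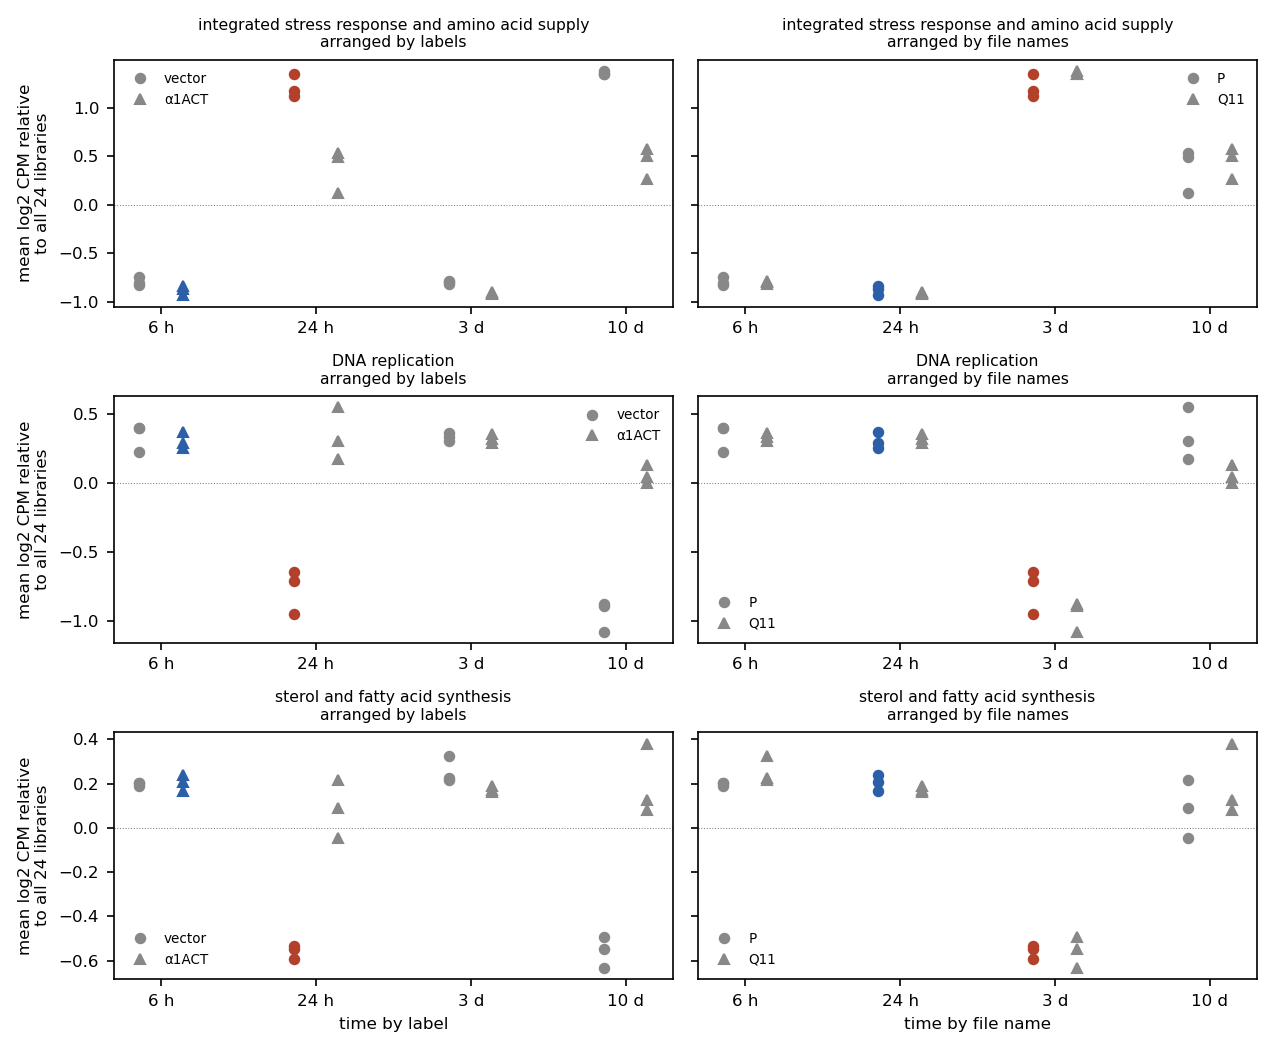
Mean log2 CPM of 3 gene lists in each of the 24 libraries, relative to the mean over all libraries, placed by line and time of the labels (left) and of the file names (right), with vector 24 h libraries in red, α1ACT 6 h libraries in blue and the others in grey. Arranged by labels, the stress response list alternates between low and high in both lines. By file names it is highest, and the other lists lowest, at 3 d in both lines.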

How the data were processed

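RNA of 24 PC12 libraries was counted, and 6 of them are compared. The authors deposited raw read counts per gene symbol. Tools named in the submitters' processing notes include HTSeq 0.5.4p5, TopHat2 2.0.10, Picard 1.117 and FastQC 0.11.2, besides edgeR, and the build is rn5. The strand setting of the counting is not given in the sources used here, so overlapping antisense genes may share reads. Reads assigned to no gene feature (48.96% to 50.64%) entered neither library sizes nor tests.

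Of 17055 genes listed, 13187 had a count and 9994 passed edgeR's filter by group (minimum count 10, total 15). edgeR 4.0.16 (R 4.3.3) gave the quasi-likelihood F-test with TMM factors, 1 coefficient per labelled group and 24 libraries, with 16 residual degrees of freedom and Benjamini-Hochberg adjustment at 0.05. Groups came from the labels. The SE of a log2 fold change was its absolute value divided by the square root of its F statistic. Such an SE is approximate. DESeq2 1.42.0, other scalings and filters, a replicate block and leaving out libraries were alternatives. The code was tested on simulated data.

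Genes were named by rule. These were the 14 largest called rises and falls among non-overlapping genes averaging 2 CPM or more, up to 4 members of lowest p per list (2 in the other direction) and 7 fixed genes. Members and lists were chosen with earlier results of these data known. Replicates differed by more than sampling noise (chi-square per degree of freedom 1.98 to 6.96). Promoter sequences are from RefSeq (GRCr8). Some named genes are not reported here.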

Additional observations from a re-analysis of the deposited data

How the results depend on the processing

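The count of genes called, 5374, stayed between 4790 and 5039 when 1 of the 6 libraries was left out, and between 5080 and 5572 under the other alternatives. With the replicate number as a block (replicate block) it was 5572. Same-numbered libraries deviated together weakly (r = 0.042, 0.198 and 0.092 for numbers 1, 2 and 3), and not all were above 0.1, so the numbers were not taken to pair the samples. Vector 24 h replicate 3 correlated best with α1ACT 6 h replicate 1 (r = 0.101), vector 24 h replicate 1 with α1ACT 6 h replicate 3 (r = 0.064), and number 2 with its own number. Number 2 lay farthest out in vector 10 d as well, at 0.270 to 0.289 log2 CPM against 0.210 between numbers 1 and 3. In α1ACT 3 d these were 0.244 to 0.252 and 0.206. What the numbers stand for was not tested. The difference of the contrasts, 0 genes as reported, was 24 with no filter on low counts, 24 with DESeq2, 5 with the replicate block, 144 without all libraries numbered 2 (chosen after seeing the data) and 0 to 31 when 1 library was left out. The cause was not tested. Heat shock genes called lower numbered 5 to 7 when 1 library was left out, against 8. Of 209 named genes 202 kept direction and side of the threshold under all alternatives, none reversed, and Hmmr, Hist2h4, Gusb, Isl1, Rest, Kcnb2 and Rgs7 missed the threshold under at least 1. Without scaling factors, on library sizes alone, 44.9% of called genes were higher, against 49.9% as reported. In these 6 libraries 3 counts equalled 0.207 to 0.275 CPM, the limit for genes near silence.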
